A study of Mus musculus with 12 samples.

Results

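Interferon-stimulated genes were examined in gut epithelial cells of WT and Chd8L+/- mice. The 9 genes were chosen by name as well-known targets of interferon signalling, namely *Isg15*, *Usp18*, *Ifit1*, *Ifit2*, *Ifit3*, *Oasl2*, *Irf7*, *Zbp1* and *Ifi44*. All 9 were found among the 14244 genes of the table, and all 9 were among the 12808 genes with a mean of at least 10 normalized counts, over which the genotypes were compared. The rule that chose them used no threshold on measured values. A normalized count is the number of reads on a gene divided by a size factor of its library, so that libraries of different depth can be compared.

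The study compared 5 WT and 7 Chd8L+/- mice, male littermates on a C57BL/6 background at 8 weeks of age, to learn how the loss of a *Chd8* copy affects transcription in the gut epithelium. *Chd8* encodes a chromatin remodeling factor, and Chd8L+/- mice are heterozygous for a deletion in the exons of its large isoform. The deletion was carried by every cell of the mouse, so immune and stromal cells carried it as well as the epithelium. Epithelial cells were detached from the gut wall chemically and by vortexing, the whole pellet was used without sorting, and each mouse gave 1 poly(A) RNA library.

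Interferons are secreted upon the detection of viral or microbial nucleic acids. Type I and type III interferons bind separate receptors but both activate JAK kinases and a transcription factor complex that contains IRF9 and binds interferon-stimulated response elements in the promoters of its targets. In the gut epithelium, type III interferon is a main antiviral signal, and commensal microbes are known to maintain a low level of interferon-stimulated gene expression without infection.

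The libraries held from 15691662 to 20761315 reads on genes. The level of *Chd8* itself was 953 ± 85.5 normalized counts in the 5 WT and 1297 ± 123 in the 7 Chd8L+/- libraries (mean ± SD). The groups did not overlap, as was so for 0.515% of all tested genes (two-sided exact permutation test over samples, 792 arrangements, p = 0.00126). Adjusted over all genes tested, the p of *Chd8* was 0.121 by limma, 0.107 by edgeR and 0.00378 by DESeq2. The levels are counts over the whole gene, in which the deleted exons cannot be told apart, so they do not check the deletion. All 10 epithelial markers were detected, with summed levels of 174565 to 308182 in WT and 170113 to 298813 in Chd8L+/- libraries. Of the 10, 7 had a log2 fold change, Chd8L+/- over WT, below 0 and 3 had one above it. In WT and Chd8L+/- mice *Epcam* had means of 42403 and 37046 normalized counts, *Krt18* of 10846 and 4878, and *Krt19* of 13103 and 17838. WT replicate 2 stood apart from the other WT libraries. With all libraries, 3 genes passed an adjusted p of 0.05 between genotypes (limma, Benjamini-Hochberg adjustment over all genes tested), and without WT replicate 2 the number was 3533. Results that rest on this library are therefore given with and without it. *Krt18* had an adjusted p of 0.121 by limma and 0.00894 by DESeq2, and of 0.00406 by limma without WT replicate 2. For *Krt19* these values were 0.211, 0.176 and 0.0239.

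Short stretches of promoter sequence show what some of these genes have in common. RefSeq entries on GRCm38.p6, from 250 bases before to 50 bases after the transcription start, were at hand for 7 of the 9 genes. Those of *Usp18* and *Zbp1* were not analysed here. The core of the interferon-stimulated response element was searched as GAAA, any 2 bases and GAAA again, which reads as TTTC, 2 bases and TTTC on the other strand. Both strands were searched, and matches that overlap each other were counted separately. It was found in the promoters of *Isg15*, *Ifit1* and *Ifit3*, and not in those of *Irf7*, *Ifi44*, *Oasl2* and *Ifit2*. Of all 32851 promoters of this length, 3.44% held the motif. The 170 bases that end just before the start of each of the 3 genes are shown 5′ to 3′ on the strand of the gene, with the motif in capitals. They lie at chr4:156200819-156200988 on the minus strand for *Isg15*, at chr19:34640719-34640888 on the plus strand for *Ifit1* and at chr19:34583359-34583528 on the plus strand for *Ifit3*.
Isg15: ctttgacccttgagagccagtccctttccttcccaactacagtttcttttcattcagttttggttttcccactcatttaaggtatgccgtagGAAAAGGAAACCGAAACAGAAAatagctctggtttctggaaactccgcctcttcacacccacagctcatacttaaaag
Ifit1: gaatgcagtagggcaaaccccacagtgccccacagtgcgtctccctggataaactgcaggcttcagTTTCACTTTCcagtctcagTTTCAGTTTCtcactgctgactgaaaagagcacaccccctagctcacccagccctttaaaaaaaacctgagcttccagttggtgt
Ifit3: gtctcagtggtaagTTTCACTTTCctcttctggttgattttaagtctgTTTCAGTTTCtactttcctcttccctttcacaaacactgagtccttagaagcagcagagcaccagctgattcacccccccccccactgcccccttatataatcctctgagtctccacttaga
*Isg15* held 3 matches in a row that overlap each other, from 78 to 57 bases before the start. *Ifit1* held 2 separate matches, at 104 to 95 and at 85 to 76 bases before the start, both facing the other way. In *Ifit3* the 2 matches lay at 156 to 147 and at 122 to 113 bases before the start, and their bases were those of the *Ifit1* matches in the same order. A match describes the letters of a promoter and was not measured as a binding site in these cells. Only this exact core was searched within 300 bases, so a promoter without a match was not shown to lack a response element.

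Of the 9 genes, *Usp18* had the largest difference between the genotypes, with a mean in Chd8L+/- mice of 243 normalized counts against 496 in WT. The log2 fold changes of the other 8 lay between -0.36 and 0.13, and none was larger than the spread between mice when all libraries were used. In none of the 9 genes did the values of the groups lie apart with all libraries, as they did for 0.515% of all tested genes. No gene of the 9 passed an adjusted p of 0.05 (limma), where 0.0234% of all tested genes passed. *Usp18* had an unadjusted p of 0.05 or less, a mark that 24.3% of all tested genes reached. The log2 fold change, Chd8L+/- over WT, was below 0 for 8 of the 9 genes, as it was for 48.6% of all tested genes. Its median was -0.19 over the 9 genes and 0.014 over all tested genes. Of the 8, *Ifit1* (-0.0087) and *Ifi44* (-0.018) were close to 0. Both lay above 0 in the count-based tests DESeq2 and edgeR with all libraries. Some of the 9 genes also varied together across mice, with Pearson's r up to 0.92, so their directions are not independent. These are total levels of bulk RNA, in which fewer expressing cells and less RNA per cell cannot be told apart.

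ISG15 is a ubiquitin-like protein that is conjugated to other proteins upon interferon signalling, and USP18 is the protease that removes it. USP18 also binds the type I interferon receptor and limits its signalling. *Usp18* (chromosome 6, 121245906 to 121270917, plus strand, GRCm38) had 618, 202, 520, 555 and 586 normalized counts in WT replicates 1 to 5. In Chd8L+/- mice the lowest value was 117, the median 226 and the highest 378. Apart from WT replicate 2, every WT library lay above every Chd8L+/- library. The WT mean was 496 ± 168 and the Chd8L+/- mean 243 ± 88.3 normalized counts (± SD, 5 and 7 mice). The log2 fold change was -1.02 ± 0.31 (SE), with a 95% interval of -1.69 to -0.34 and an adjusted p of 0.122 by limma. The two-sided exact permutation test over samples gave p = 0.024. A p as small as that of *Usp18* in limma or smaller was found for 627 genes, 4.9% of those tested.

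The call for *Usp18* turned on WT replicate 2 and on the test. Without that library, *Usp18* fell by 1.31 on the log2 scale (SE 0.26, adjusted p = 0.00492 by limma), the 4 remaining WT libraries lay between 520 and 618 normalized counts, and the groups did not overlap, as was so for 7.71% of all tested genes in the same direction. With all 12 libraries, DESeq2 on the recovered reads gave a log2 fold change of -1.03 with an adjusted p of 0.025, and 4.07% of the genes in that test passed as lower. edgeR on the same reads gave -1.02 with an adjusted p of 0.114, and it called 0.039% of all tested genes. The direction held in each pair of genotypes that shared a number in the library name, a number whose meaning the labels do not give. Within the numbers 2, 3, 20 and 22 the log2 difference in *Usp18* was -1.45, -0.13, -2.14 and -0.81, with 1 or 2 libraries per genotype in each. Number 3 is the one that holds WT replicate 2. A noncoding gene, *Gm44148*, overlaps *Usp18* on the opposite strand, and the strand setting of the authors' counting was not given in the sources used here.

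*Isg15* (chromosome 4, 156199424 to 156200818, minus strand) had 488, 292, 427, 354 and 619 normalized counts in WT replicates 1 to 5. Its lowest, median and highest values in Chd8L+/- mice were 222, 331 and 674. The groups overlapped over most of their range, with the highest value of all 12 libraries in Chd8L+/- replicate 7. The log2 fold change of -0.36 had a 95% interval of -0.90 to 0.18 (adjusted p = 0.384 by limma). Within the 4 shared library-name numbers *Isg15* was lower in Chd8L+/- mice each time, by differences of -0.56, -0.20, -0.94 and -0.33 on the log2 scale. The ratio of *Usp18* to *Isg15* normalized counts was 1.27, 0.691, 1.22, 1.57 and 0.945 in WT replicates 1 to 5, and between 0.52 and 1.1 in Chd8L+/- mice.

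The enzymes that attach ISG15 form a short cascade, and the 4 on the list had a median log2 fold change of -0.29. With all libraries none passed an adjusted p of 0.05 in limma and *Ube2l6* passed in DESeq2 (adjusted p = 0.0423). *Ube2l6*, the E2 conjugating enzyme, had 1396 ± 376 normalized counts in the 5 WT mice and 856 ± 228 in the 7 Chd8L+/- mice (± SD), with a log2 fold change of -0.69 (adjusted p = 0.124 by limma, and 0.00508 without WT replicate 2). The values for *Trim25*, an E3 ligase, were 3478 ± 691 and 2725 ± 537 (log2 fold change -0.35, adjusted p = 0.225 by limma, and 0.0272 without WT replicate 2). *Herc6*, the main E3 ligase for ISG15 in mice, gave a log2 fold change of 0.11 in the other direction.

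**Figure D1:**
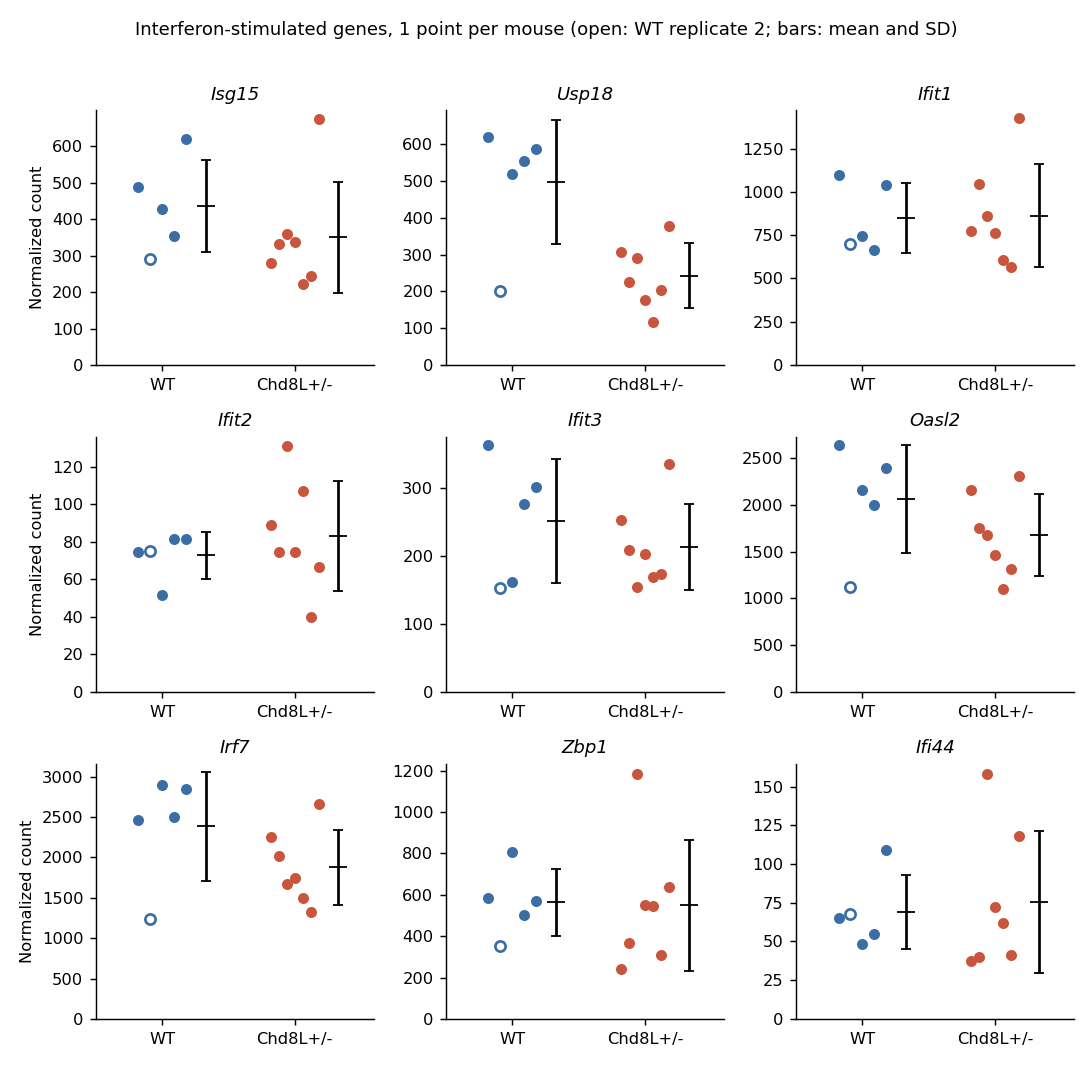
Normalized counts (y axis, linear from 0) of the 9 interferon-stimulated genes in each of 5 WT and 7 Chd8L+/- mice, with the mean and SD beside the points. In *Usp18* the 4 WT points from 520 to 618 lie above all Chd8L+/- points, and the open point of WT replicate 2 at 202 lies among them, while the other 8 genes overlap broadly.

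IFIT proteins bind viral RNA and block its translation. IFIT1 recognises RNA without the cap methylation of host messages, and IFIT2 and IFIT3 form complexes with it and with each other. None of the 3 genes differed between genotypes beyond the spread between mice. *Ifit1* (chromosome 19, 34640871 to 34650009, plus strand) had 1100, 697, 745, 665 and 1037 normalized counts in WT replicates 1 to 5. Its lowest, median and highest values in Chd8L+/- mice were 565, 774 and 1427. The group means were 849 ± 204 and 863 ± 296 normalized counts (± SD, 5 and 7 mice), and the groups lay on top of each other. The 95% interval of the log2 fold change ran from -0.48 to 0.46 (adjusted p = 0.984 by limma).

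*Ifit3* (chromosome 19, 34583531 to 34588731, plus strand) had 363, 152, 161, 276 and 301 normalized counts in WT replicates 1 to 5. In Chd8L+/- mice it ranged from 154 to 335 with a median of 203, and all 7 of these values fell within the WT range. The log2 fold change was -0.19 (95% interval -0.73 to 0.34, adjusted p = 0.65 by limma). *Ifit2* (chromosome 19, 34550694 to 34576419, plus strand) was measured on few reads, with 44 in the lowest library, where counting error alone is 15.1%. It had 74.7, 75.1, 51.4, 81.3 and 81.5 normalized counts in WT replicates 1 to 5 and 40.1, 74.6 and 131 as lowest, median and highest values in Chd8L+/- mice. It was the 1 gene of the 9 with a log2 fold change above 0, at 0.13 (95% interval -0.42 to 0.68, adjusted p = 0.785 by limma). *Ifit1* and *Ifit3* have closely related neighbours on chromosome 19, and reads that match both copies may have been divided or dropped.

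*Oasl2* encodes an oligoadenylate synthetase-like protein with antiviral activity, and *Irf7* encodes the transcription factor that amplifies type I interferon production. *Oasl2* (chromosome 5, 114896936 to 114912234, plus strand) had 2638, 1119, 2158, 1999 and 2396 normalized counts in WT replicates 1 to 5. In Chd8L+/- mice the lowest value was 1096, the median 1673 and the highest 2306. WT replicate 2 was next to the lowest of all 12 libraries, and the other 4 WT libraries overlapped the upper part of the Chd8L+/- range. The log2 fold change was -0.28 with all libraries (95% interval -0.76 to 0.20, adjusted p = 0.449 by limma) and -0.49 without WT replicate 2 (adjusted p = 0.0684 by limma). The two-sided exact permutation test without that library gave p = 0.0455, which was not adjusted. Before adjustment, 40.3% of all tested genes reached 0.05 in limma in that setting.

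*Irf7* (chromosome 7, 141262706 to 141266481, minus strand) showed the same arrangement of libraries. It had 2458, 1233, 2899, 2496 and 2851 normalized counts in WT replicates 1 to 5, and WT replicate 2 was below every Chd8L+/- library. Its lowest, median and highest values in Chd8L+/- mice were 1318, 1751 and 2662. With all libraries the log2 fold change was -0.32 (95% interval -0.79 to 0.16, adjusted p = 0.382 by limma, two-sided exact permutation p = 0.217). Without WT replicate 2 *Irf7* fell by 0.54 on the log2 scale (adjusted p = 0.0329 by limma, two-sided exact permutation p = 0.0212 over 330 arrangements). *Usp18* and *Irf7* were the 2 genes of the 9 that passed in that setting, in which 13.6% of all tested genes passed as lower, and the median over the 9 genes was -0.35. The same 2 genes passed without that library in DESeq2 and in edgeR, where 13.9% and 12.3% of the genes passed as lower. The adjusted p-values of the other 7 ran from 0.0684 to 0.989 without it (limma). *Irf7* overlaps *Phrf1* on the opposite strand, and without a known strand setting the reads of the overlap cannot be assigned.

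**Figure D2:**
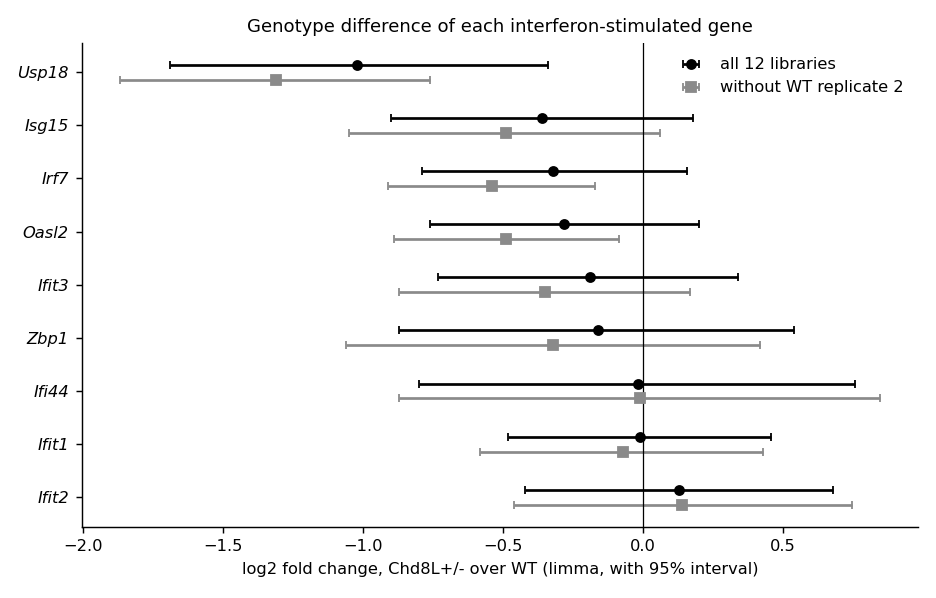
Log2 fold change of each of the 9 genes, Chd8L+/- over WT (x axis), with 95% intervals from limma for all 12 libraries (black circles) and without WT replicate 2 (grey squares). The interval of *Usp18* excludes 0 in both settings, from -1.69 to -0.34 with all libraries, while those of *Irf7* and *Oasl2* exclude 0 only without that library.

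*Zbp1* encodes a sensor of Z-form nucleic acids that can trigger necroptosis, and *Ifi44* encodes a cytoplasmic protein induced by interferon. Both varied widely among mice, most of all within the Chd8L+/- group. *Zbp1* (chromosome 2, 173206612 to 173218923, minus strand) had 583, 353, 805, 504 and 569 normalized counts in WT replicates 1 to 5, against 241, 547 and 1184 as lowest, median and highest values in Chd8L+/- mice. The log2 fold change of -0.16 had a 95% interval of -0.87 to 0.54 (adjusted p = 0.785 by limma). *Ifi44* (chromosome 3, 151730922 to 151749960, minus strand) had 64.9, 68.0, 48.4, 54.5 and 109 normalized counts in WT replicates 1 to 5, against 37.1, 61.8 and 158 in Chd8L+/- mice. Its log2 fold change of -0.018 had a 95% interval of -0.80 to 0.76 (adjusted p = 0.981 by limma). The low counts of *Ifi44*, with 43 reads in the lowest library, add a counting error of up to 15.2%.

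Chd8L+/- replicate 3 had the highest level of the 12 libraries in *Zbp1*, *Ifi44* and *Ifit2*. The summed level of 14 myeloid markers was highest there too, at 20556 normalized counts, followed by 17962 in Chd8L+/- replicate 5. It was between 2932 and 8810 in the other 5 Chd8L+/- libraries and between 3209 and 7266 in WT. The sums were carried by *Cd74*, the invariant chain of MHC class II, which other cell types also express, with 18058 normalized counts in replicate 3 and 13408 in replicate 5. The other 13 markers summed to 2498 in Chd8L+/- replicate 3, within the 2090 to 4555 of the other Chd8L+/- libraries, so they were not highest there. In WT replicates 1 to 5 they summed to 1736, 3662, 1490, 1424 and 1684. Without WT replicate 2 the groups did not overlap in this sum, as was so for 14.4% of all tested genes in either direction. In Chd8L+/- replicate 5 *Zbp1* and *Ifi44* were at 547 and 61.8 normalized counts, and *Ifit2* was at 107, next to its highest value. No marker of that list was at 0 in all libraries, 13 of 14 had a log2 fold change above 0, and 5 of 14 had an unadjusted p of 0.05 or less in that direction, beside 12.5% of all tested genes. The part of myeloid cells, or of *Cd74*-expressing cells, in the level of these 3 genes was not tested.

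Relative to exon length, *Irf7* and *Isg15* were the most abundant of the 9 genes, with means of 554 and 510 normalized counts per kb of exon over all libraries. They were followed by *Ifit1* at 323, *Oasl2* at 289, *Zbp1* at 157, *Ifit3* at 131 and *Usp18* at 125 normalized counts per kb. *Ifit2* and *Ifi44* were far lower on the same scale, at 20.1 and 11.9. Exon length was the union of the exons of all annotated transcripts of a gene, which can exceed the length of any 1 transcript. For *Irf7* it was 3776 bases, the whole span of the gene. The order by kb therefore depends on the annotation. By genotype *Usp18* had 178 normalized counts per kb in WT and 87 in Chd8L+/- mice. In WT alone *Usp18* stood above *Zbp1* at 159 and *Ifit3* at 144, and *Oasl2* at 324 was level with *Ifit1* at 320, so the order of these genes is that of the mean over all mice. Across the 12 libraries the highest level was 5.26 times the lowest for *Usp18* and 4.91 times for *Zbp1*, and 2.35 times for *Irf7*.

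The 9 genes did not vary as 1 block across mice. Over the 12 libraries the 36 pairs of genes had a median Pearson's r of 0.47 and a median Spearman's rho of 0.485, with r from -0.13 to 0.92, as a description without a test, since the libraries share their scaling and the genotypes are mixed. The closest pair was *Irf7* and *Oasl2* (r = 0.92, rho = 0.87), followed by *Oasl2* and *Usp18* (r = 0.89, rho = 0.92). *Isg15* went with *Ifit1* (r = 0.84, rho = 0.72), and *Zbp1* went with *Ifi44* (r = 0.73, rho = 0.68). *Ifit2* had an r below 0 with 5 of the 8 others, and its highest, 0.48, with *Ifi44*. The low counts of *Ifit2* and *Ifi44* limit what such values can show.

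Mice of both genotypes stood at the top and at the bottom of the ranking. Chd8L+/- replicate 7 was among the 3 highest libraries in 7 of the 9 genes, WT replicate 5 in 6 and WT replicate 1 in 5. Chd8L+/- replicate 6 was among the 3 lowest in 7 of the 9 genes, and WT replicate 2 and Chd8L+/- replicate 5 in 5 each. The mean deviation of the 9 genes from their own means, on the log2 scale, ran from -0.39 to 0.49 over the WT mice and from -0.59 to 0.48 over the Chd8L+/- mice. The group means of this deviation, 0.14 in WT and -0.10 in Chd8L+/- mice, were closer to each other than the SD within either group (0.34 and 0.37). In Chd8L+/- replicate 7, in which *Isg15* and *Ifit1* were the highest of all 12 libraries, *Usp18* was at 378 normalized counts, below 4 of the 5 WT libraries. Markers of the distal small intestine summed to 3271 to 20622 in WT, and from 397 in Chd8L+/- replicate 6 to 26515 in replicate 5. Proximal markers summed to 47570 to 71053 in WT and 24267 to 80232 in Chd8L+/- libraries, and colon markers to 4310 to 19636 and 3796 to 24290. The part of gut region in this ranking was not tested.

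**Figure D3:**
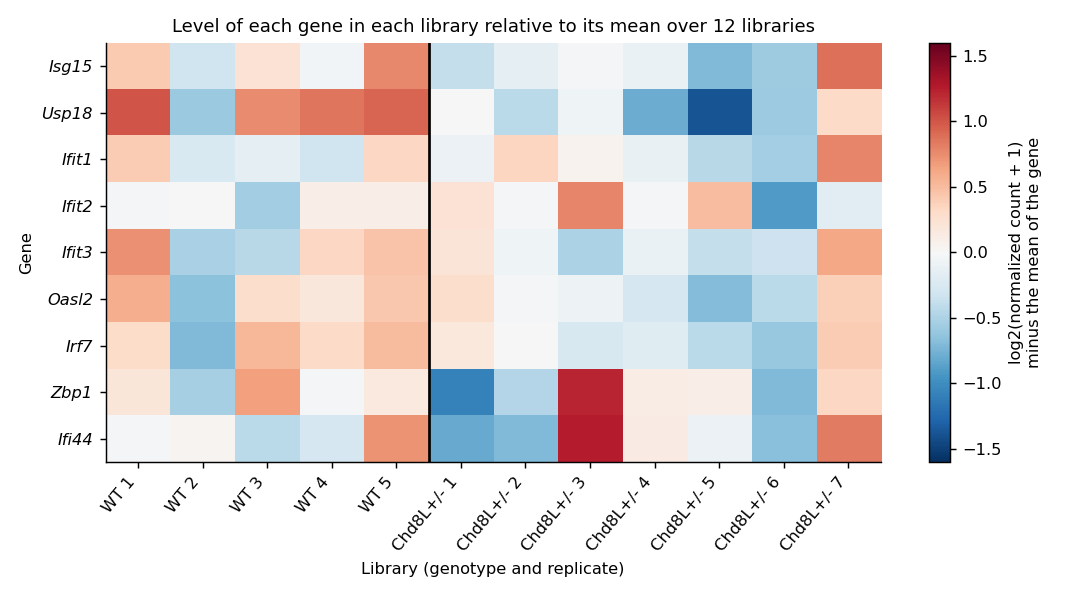
Deviation of log2(normalized count + 1) from the mean of each gene over the 12 libraries (colour), with genes as rows and libraries as columns, WT left of the black line. WT replicate 5 and Chd8L+/- replicate 7 are above the mean in 9 and 8 of the 9 genes, Chd8L+/- replicate 6 is above it in 0, and *Zbp1* and *Ifi44* are highest in Chd8L+/- replicate 3.

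Among the other genes tested, the 6 with the highest Pearson correlation with the mean of the 9 genes over the 12 libraries were *Ddhd2* (r = 0.925), *Stab1* (r = 0.919), *H2-Bl* (r = 0.910), *Map3k3* (r = 0.900), *Sp100* (r = 0.866) and *Oas1g* (r = 0.864). *Sp100* encodes a nuclear body protein and *Oas1g* an oligoadenylate synthetase, both interferon-stimulated, and *H2-Bl* is an MHC class I gene. *Ddhd2* encodes a phospholipase, *Stab1* a scavenger receptor and *Map3k3* a kinase. In the comparison of genotypes their adjusted p-values ran from 0.154 for *Sp100* to 0.893 for *Stab1* (limma). Without WT replicate 2 those of *Sp100* and *Oas1g* were 0.0155 and 0.0311 (limma). The 6 genes were picked as the highest of all other tested genes over only 12 libraries, and such a selection alone yields high values of r. Shared regulation with the 9 genes was not tested.

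Around these 9 genes, the 123 other tested genes of the interferon pathway, in lists by role, had 75 log2 fold changes below 0 and 48 above it. None passed an adjusted p of 0.05 in limma or edgeR, and 9 passed in DESeq2, 8 of them lower and 1 higher, beside 4.07% and 1.62% of all genes in that test. Those lower were *Il10rb*, *Ifngr2*, *Ube2l6*, *Ifi27*, *Ifi27l2b*, *Ifi35*, *Ptpn6* and *Socs1*, and the higher one was *Irf8*. Their DESeq2 adjusted p-values with all libraries ran from 0.00945 for *Ifi27* to 0.0445 for *Ifi35*. With the letter of the library name as a block, 7 passed in limma, beside 3.52% of all tested genes. In limma without adjustment, 18 genes were lower at a p of 0.05 or less (14.6%, beside 11.8% of all tested genes) and 3 were higher (2.44%, beside 12.5%). Without WT replicate 2, 26 genes fell and 4 rose at an adjusted p of 0.05 (limma), in a setting where 13.6% and 14% of all tested genes did.

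Of the genes of the interferons themselves, *Ifng* was the 1 of 9 present in the table, at 0 to 4.06 normalized counts in WT and 0 to 25.8 in Chd8L+/- libraries, too low to be tested. Over the 6 receptor genes the median log2 fold change was -0.51, and -0.67 without WT replicate 2. *Il10rb*, which encodes the receptor chain shared by type III interferons and interleukin-10, had 1778 ± 388 normalized counts in the 5 WT mice and 1102 ± 202 in the 7 Chd8L+/- mice (± SD) (log2 fold change -0.68, adjusted p = 0.121 by limma, and 0.00331 without WT replicate 2). *Ifnar2*, a chain of the type I receptor, had 292 ± 66 and 196 ± 44.2 (log2 fold change -0.57, adjusted p = 0.128 by limma, and 0.0128 without WT replicate 2). *Ifngr2* and *Ifnlr1*, named after their values were seen, were the other receptor genes with an unadjusted p of 0.05 or less, with log2 fold changes of -0.70 and -0.44 (adjusted p = 0.136 and 0.19 by limma, and 0.00476 and 0.0153 without WT replicate 2). *Ifngr1*, which encodes the ligand-binding chain of the type II receptor, had a log2 fold change of 0.051. Thus 4 of the 6 receptor genes were lower at an unadjusted p of 0.05 or less, beside 11.8% of all tested genes. Without WT replicate 2 the same number passed an adjusted p of 0.05 as lower, beside 13.6% of all tested genes (limma).

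Downstream of the receptors, the 12 genes of the JAK-STAT and IRF relay centred near the median of all genes, at -0.089. *Irf2*, a repressor of interferon responses, had a log2 fold change of -0.51 and *Irf9*, a DNA-binding factor of interferon responses, of -0.23 (adjusted p = 0.148 and 0.254 by limma, and 0.0136 and 0.078 without WT replicate 2). *Irf8*, a factor best known from myeloid and B cells, had 1330 ± 145 normalized counts in the 5 WT mice and 2069 ± 528 in the 7 Chd8L+/- mice (± SD), with a log2 fold change of 0.61 (adjusted p = 0.121 by limma, and 0.0122 without WT replicate 2). *Tyk2*, a receptor kinase, had 0.19.

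The 14 tested sensors and adaptors had a median log2 fold change of -0.11. *Mb21d1*, which encodes the cytosolic DNA sensor cGAS, had 45.2 ± 26.3 normalized counts in the 5 WT mice and 85.6 ± 18.4 in the 7 Chd8L+/- mice (± SD), a log2 fold change of 1.13 (adjusted p = 0.126 by limma, and 0.0148 without WT replicate 2). The DNA sensor gene *Aim2* had 0.52. *Dhx58*, which encodes the RNA sensor LGP2, had -0.34 and the kinase gene *Tbk1* had -0.30 (adjusted p = 0.233 and 0.239 by limma, and 0.0245 and 0.0398 without WT replicate 2).

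Among 48 other targets of type I and III interferon the median log2 fold change was -0.089, with 30 genes below 0 and 18 above, and 7 (14.6%) were lower at an unadjusted p of 0.05 or less, close to the 11.8% of all tested genes. *Ifi27*, which encodes a small mitochondrial protein, had 1175 ± 390 normalized counts in the 5 WT mice and 563 ± 184 in the 7 Chd8L+/- mice (± SD), a log2 fold change of -1.04 (adjusted p = 0.121 by limma, and 0.00357 without WT replicate 2). Its relative *Ifi27l2b* had means of 26866 and 13173 (log2 fold change -0.96, adjusted p = 0.126 by limma, 0.0214 by DESeq2, and 0.00415 without WT replicate 2 by limma). *Ifi35* had 1508 ± 323 and 1067 ± 155 (log2 fold change -0.48, adjusted p = 0.125 by limma, and 0.00386 without WT replicate 2). In the other direction, *Ifitm2*, which encodes a membrane protein that hinders viral entry, had a log2 fold change of 0.53 (adjusted p = 0.229 by limma, and 0.0338 without WT replicate 2). *Ifi204*, a member of the family of DNA-binding PYHIN proteins, had 1.15 (adjusted p = 0.241 by limma), at 0 to 11.2 normalized counts in WT and 5.46 to 18.9 in Chd8L+/- libraries.

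The genes that respond mainly to interferon gamma, guanylate-binding proteins, immunity-related GTPases and chemokines, had a median of the other sign, 0.24 (0.37 without WT replicate 2), with 17 of 19 log2 fold changes above 0. None had an unadjusted p of 0.05 or less. *Irgm1* and *Gbp3*, both GTPases of cell-autonomous defence, had log2 fold changes of 0.46 and 0.49 (adjusted p = 0.22 and 0.236 by limma), and *Ifi47* and *Ido1* had -0.085 and -0.0079. MHC class I presentation had a median of -0.22 over 12 genes. There *Psmb10*, an immunoproteasome subunit, had a log2 fold change of -0.30 and *B2m*, the light chain of MHC class I, of -0.51, and the peptide-trimming *Erap1* had 0.31 and the transporter *Tap1* 0.20. *Psmb10*, *B2m* and *Erap1* had adjusted p-values of 0.138, 0.186 and 0.148 by limma, and of 0.0267, 0.0112 and 0.0146 without WT replicate 2.

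The negative regulators of the pathway, the group to which *Usp18* is also related by function, showed a median of -0.12 on the log2 scale over 8 genes, and 3 of them were lower at an unadjusted p of 0.05 or less, beside 11.8% of all tested genes. *Ptpn6*, which encodes the phosphatase SHP-1, had 1848 ± 833 normalized counts in the 5 WT mice and 865 ± 212 in the 7 Chd8L+/- mice (± SD), with a log2 fold change of -0.98 (adjusted p = 0.121 by limma, and 0.00295 without WT replicate 2). *Socs1*, an inhibitor of JAK kinases, had 364 ± 226 and 146 ± 39.2 (log2 fold change -1.08, adjusted p = 0.129 by limma, and 0.0046 without WT replicate 2). *Nlrx1* had 0.47.

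**Figure D4:**
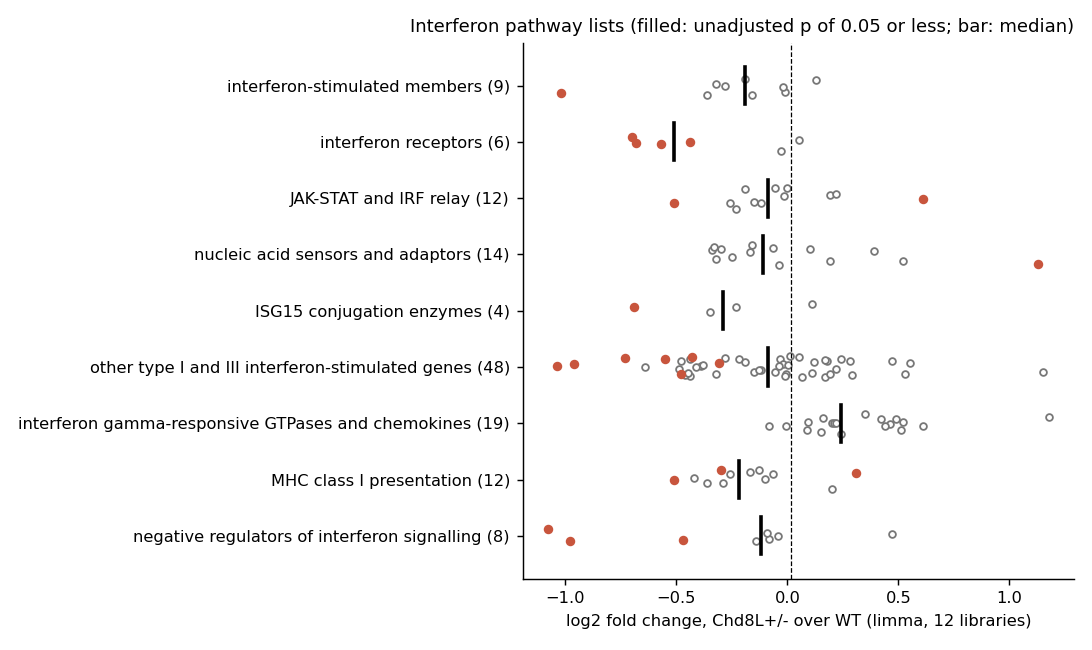
Log2 fold change, Chd8L+/- over WT (x axis), of each tested gene in the interferon pathway lists (rows, number of tested genes in brackets), with filled points at an unadjusted p of 0.05 or less in limma, black bars at the list medians and a dashed line at the median of all tested genes, 0.014. The receptor median lies at -0.51 and that of the interferon gamma-responsive genes at 0.24, with *Usp18* the filled point of the top row at -1.02.

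Markers of tuft cells, a chemosensory type of epithelial cell, were lower in Chd8L+/- mice and in WT replicate 2, as *Usp18* was. Their summed level over 8 genes was 7857, 1867, 14156, 17104 and 9418 normalized counts in WT replicates 1 to 5, and it ran from 1077 to 7488 in Chd8L+/- mice. Without WT replicate 2 the groups did not overlap in either measure, as was so for 7.71% of all tested genes in the same direction. Within the genotypes the order of the mice was shared only in part. In Chd8L+/- replicates 1 to 7 the tuft sums were 3713, 3252, 1101, 1996, 1077, 7488 and 3129 normalized counts. *Usp18* was at 306, 226, 292, 176, 117, 204 and 378 in the same libraries, so replicate 5 was lowest in both. Among the 4 other WT libraries replicate 1 had the highest *Usp18* and the lowest tuft sum. All 8 tuft markers were lower at an unadjusted p of 0.05 or less in limma, beside 11.8% of all tested genes, with a median log2 fold change of -1.85, and 6 of 8 passed an adjusted p of 0.05 in DESeq2, beside 4.07% as lower. None of the 8 was at 0 in all libraries. The part of tuft cells in the level of *Usp18* was not tested. Summed T cell markers overlapped between genotypes, at 2866 to 7168 in WT and 3124 to 8149 in Chd8L+/- libraries, as did B cell markers at 483 to 2013 and 250 to 4228. Stromal and endothelial markers summed to 43.6 to 353 in WT and 71.9 to 1292 in Chd8L+/- libraries, and the 5 that were tested had a median log2 fold change of 2.03, with 3 of them higher at an unadjusted p of 0.05 or less, beside 12.5% of all tested genes. Markers of plasmacytoid dendritic cells, a main source of type I interferon, summed to 1004 to 2399 in WT and 980 to 3382 in Chd8L+/- libraries, of which *Klk1* made up 58.3% to 90.9% in each library. *Siglech*, a defining marker of these cells, had means of 18.9 and 36.2 normalized counts (log2 fold change 1.07, adjusted p = 0.164 by limma). Without WT replicate 2 its adjusted p was 0.0244 by limma, in a setting where 14% of all tested genes passed as higher. The other tested markers of plasmacytoid dendritic cells had log2 fold changes of 0.32 for *Ccr9*, -0.058 for *Bst2* and -0.35 for *Klk1*. The list median was 0.13, with 2 tested markers above 0 and 2 below. The part of these cells in the levels of the 9 genes was not tested.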

How the data were processed

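Gut epithelial cells of 12 mice were profiled by single-end sequencing of poly(A) RNA. Mapping to mm10 was done by the authors with Tophat2, followed by the DESeq2 pipeline. The deposited table gives each gene a signal in each library, that is, its reads over a size factor. How the reads were counted, on which annotation and whether by strand, was not given in the sources used here. Each library's values were whole multiples of 1 read's worth, and 100% of the values came out whole within a tolerance of 0.01, so the reads behind them were recovered, between 15691662 and 20761315 per library. Counting error follows from these reads and is largest for genes with few. Of the 14244 rows, 21 had names turned into dates and 2 repeated a name, and these are not named here. All 12 columns were matched to mice by library name.

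Genotypes were compared with limma 3.58.1 in R 4.3.3, using eBayes with a mean-variance trend, on log2(value + 1). Genes whose mean reached 10 were kept, with Benjamini-Hochberg adjustment over all 12808 genes tested and a threshold of 0.05. A fold change on this scale understates changes of low genes. For single genes a two-sided exact permutation test over samples was added. Alternatives were, on the recovered reads, DESeq2 1.42.0 and edgeR 4.0.16, and otherwise a pseudocount of 0.5 or 5, a mean filter of 50 or none, quantile and TMM scaling, the replicate number or the letter or number of the library name as a block, and each library left out in turn. DESeq2 and edgeR without WT replicate 2 were added after the values were seen. Gene positions and exon lengths came from GENCODE M21 on GRCm38, and promoters from RefSeq on GRCm38.p6.

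The 9 genes and the lists were chosen with earlier results of these data known. The genes named are the 9, *Chd8*, in each pathway list the 2 with the smallest p in each direction and any gene called by limma with all libraries, and the 6 genes most correlated with the mean of the 9, beside *Ifi27l2b*, *Ifngr2*, *Ifnlr1* and the cell type markers named with values, which were named after these were seen.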

Additional observations from a re-analysis of the deposited data

Results flagged for a closer look

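In 4 of 20 groups of values 1 library lay far from the rest of its genotype (Dixon's criterion at the 95% level), where chance gives about 1. In WT replicate 2 *Usp18* was at 202 normalized counts, with the other 4 WT libraries between 520 and 618. In the same library *Irf7* was at 1233, with the others between 2458 and 2899. *Ifit2* was at 51.4 normalized counts in WT replicate 3, with the others between 74.7 and 81.5. *Isg15* was at 674 normalized counts in Chd8L+/- replicate 7, with the other 6 between 222 and 358.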

How the results depend on the processing

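The median log2 fold change of the 9 genes kept its sign in every setting run, from -0.35 to -0.14 with each library left out in turn. Of 225 comparisons of a gene with a setting, 196 kept direction and side of the threshold. The number of the 9 genes called, 0 by limma, was 1 by DESeq2 and 2 by DESeq2, edgeR or limma without WT replicate 2, with a range of 0 to 2 over the libraries left out. *Usp18* was called by DESeq2 (-1.03) and, without WT replicate 2, by DESeq2 (-1.23), edgeR (-1.21) and limma, with -1.31 to -0.86 over the libraries left out and an adjusted p between 6.56e-05 and 0.343 over all settings. *Irf7* was called without WT replicate 2 by DESeq2 (-0.51), edgeR (-0.49) and limma (-0.54 to -0.23 over the libraries left out). The exact permutation test without that library gave p = 0.0212 for *Irf7* and 0.0455 for *Oasl2*, neither adjusted. Before adjustment, 40.3% of all tested genes reached 0.05 in limma in that setting. *Oasl2* was not called there, with adjusted p-values of 0.0684 by limma, 0.0741 by DESeq2 and 0.0924 by edgeR. The sign of *Ifit1* changed under DESeq2 (0.024), TMM (0.00085), edgeR (0.035), quantile scaling (0.039) and a block for the library-name number (0.00095), with -0.14 to 0.093 over the libraries left out and p = 0.928 in the exact permutation test without logs. That of *Ifi44* changed under DESeq2 (0.13, and 0.12 without WT replicate 2), edgeR (0.14 in both) and a block for the library-name letter (0.10), with -0.23 to 0.16 over the libraries left out and p = 0.798 in the exact permutation test without logs. *Zbp1* ranged from -0.38 to 0.0041 over the libraries left out, and *Ifit2* was at -0.013 under quantile scaling. Over all genes, 3 were called by limma, 5 by edgeR, 811 by DESeq2, 451 with the letter block and 0 with the number block, and without WT replicate 2 there were 3369 by edgeR, 4112 by DESeq2 and 3533 by limma, with 0 to 3533 over the libraries left out. Of the 123 other tested pathway genes 0 were called by limma, 9 by DESeq2 and 7 with the letter block, beside 0.0234%, 5.69% and 3.52% of all genes. Without WT replicate 2 there were 34 by DESeq2 and 27 by edgeR, beside 28.9% and 26.3% of all genes. Over the libraries left out there were 0 to 30 by limma, with 27.6% of all genes called without WT replicate 2. The cause of these shifts was not tested. Replicate numbers did not pair the mice, as the deviations of same-numbered libraries had correlations of -0.344 to 0.189, and with a replicate block *Usp18* had a log2 fold change of -1.13 (adjusted p = 0.224 by limma) and 0 genes were called. Low reads limit *Ifit2* and *Ifi44* most.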
